A study of Mus musculus with 18 samples.

Results

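The chemokines that draw monocytes and eosinophils into tissue were followed through 18 mouse mammary tumors by RNA-seq. The set was chosen by gene symbol and holds 10 of the 22792 genes in the count tables. It consists of the CC chemokines Ccl2, Ccl7, Ccl8, Ccl12, Ccl11, Ccl24, Ccl6 and Ccl9, the receptor gene Ccr2 and the growth factor gene Csf1. Each tumor arose from 300000 cells of 4T1, a mouse line that models triple negative breast cancer, placed in mammary fat pad 4 of an 8-week-old female Balb/c mouse with an intact immune system. Mice were dosed by mouth from day 7, and on day 21 the tumors were removed 3 h after dosing. The Vehicle group (n = 5) received the carrier only, PI3Ki (n = 4) the pan-PI3K inhibitor CLR457 at 20 mg/kg 2 times a day, SHP2i (n = 4) the allosteric SHP2 inhibitor SHP099 at 100 mg/kg 1 time a day, and Combo (n = 5) both at those doses. PI3K is a lipid kinase and SHP2 a tyrosine phosphatase, and both relay signals from growth factor receptors. Each library came from 1 tumor, so the values sum over carcinoma cells and all cells of the host.

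CC chemokines are small secreted proteins named for a pair of adjacent cysteines near the start of the mature protein. They bind G protein-coupled receptors on leukocytes and set the direction in which these cells move. CCL2, CCL7 and CCL12 are ligands of CCR2, the receptor that brings inflammatory monocytes from the blood into tissue. Mouse CCL8 acts mainly through another receptor, CCR8, although it belongs to the same family of monocyte chemoattractants. CCL11 and CCL24 are the eotaxins, which attract eosinophils through CCR3. CCL6 and CCL9 are made in abundance by rodent myeloid cells and act mainly through CCR1. CSF1 is not a chemokine but the growth factor that sustains macrophages through the receptor CSF1R.

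The coding sequence around the adjacent cysteines is shown for the 8 chemokines because it marks them as 1 family and shows how far their sequences differ. Each line gives 30 bases of the coding strand from the GRCm38 reference, with the codons of the adjacent cysteines in capitals. All 8 windows lie within a single coding exon, exon 2 in 6 genes and exon 3 in Ccl6 and Ccl9.
Ccl2 (chr11:82036494-82036523, plus strand): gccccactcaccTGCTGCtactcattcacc
Ccl7 (chr11:82046526-82046555, plus strand): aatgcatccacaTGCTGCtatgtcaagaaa
Ccl8 (chr11:82116044-82116073, plus strand): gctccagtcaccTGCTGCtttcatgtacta
Ccl12 (chr11:82102622-82102651, plus strand): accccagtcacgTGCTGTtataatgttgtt
Ccl11 (chr11:82061684-82061713, plus strand): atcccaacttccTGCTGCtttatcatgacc
Ccl24 (chr5:135572653-135572682, minus strand): atcccctcatctTGCTGCacgtcctttatt
Ccl6 (chr11:83589374-83589403, minus strand): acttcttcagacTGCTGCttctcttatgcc
Ccl9 (chr11:83575914-83575943, minus strand): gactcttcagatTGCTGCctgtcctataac
Ccl12 used the pair TGC and TGT, and the other 7 genes used TGC for both cysteines. Identity was taken over the aligned bases of each pair of coding sequences, with gaps left out. Ccl6 and Ccl9 were the most alike, at 72.2% over 334 bases, followed by Ccl8 and Ccl12 at 70.7% over 287 bases. The lowest identity of a pair was 58.2%. None of the 75-base windows of the chemokine or Csf1 transcripts was found in a transcript of another gene. For Ccr2, 78 of 6734 windows (1.16%) were also found in a transcript of another gene.

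The tumors held 21.16 to 26.62 M counts each (M, mega), with a median of 23.52 M. Levels are given as CPM, the counts of a gene divided by the library total in M after edgeR's TMM scaling, with the mean ± SD over tumors. Differences are log2 fold changes with the standard error (SE) from edgeR's quasi-likelihood test fitted to all 18 tumors. A gene was called at a Benjamini-Hochberg adjusted p under 0.05 over all 15282 genes tested, and all 10 members were among these. The carcinoma markers were present in every tumor, at a summed 671.4 to 1332.0 CPM. The receptors whose lack defines triple negative tumors, Esr1, Pgr and Erbb2, summed to 39.1 to 99.4 CPM, and Esr1 and Erbb2 were called higher in Combo (edgeR adjusted p = 8.01e-07 and 0.00107).

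Levels per kb used the merged length of all annotated exons of a gene, which can exceed that of a single transcript. In the Vehicle tumors, Ccl8 had the highest such level, at 208.4 ± 46.3 CPM per kb of exon (SD, n = 5), followed by Ccl6 at 117.0 ± 25.9. Next came Csf1 at 52.1 ± 4.97, Ccl12 at 44.3 ± 15.5, Ccl2 at 41.7 ± 8.83, Ccl9 at 32.6 ± 6.45 and Ccl7 at 29.2 ± 10.4 CPM per kb. Ccr2 stood at 20.7 ± 4.29, Ccl24 at 11.2 ± 4.02 and Ccl11 at 10.6 ± 2.46 CPM per kb. The ranges of 1 SD around the mean did not meet between Ccl8 and Ccl6, between Ccl6 and Csf1, or between Ccr2 and Ccl24, and they overlapped for each other pair of neighbours. In Combo the order began with the same leading pair, Ccl8 at 751.4 ± 615.3 and Ccl6 at 158.2 ± 88.4 CPM per kb (SD, n = 5), and ended with Ccl12 at 8.78 ± 6.79, Ccl24 at 8.46 ± 4.51 and Ccr2 at 1.29 ± 0.914. In PI3Ki, Ccl24 stood at 40.7 ± 9.76 CPM per kb (SD, n = 4), near Csf1 at 42.1 ± 7.91. In SHP2i, Ccl8 was at 599.7 ± 299.0 and Ccr2, the lowest, at 3.87 ± 1.66 CPM per kb (SD, n = 4).

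**Figure D1:**
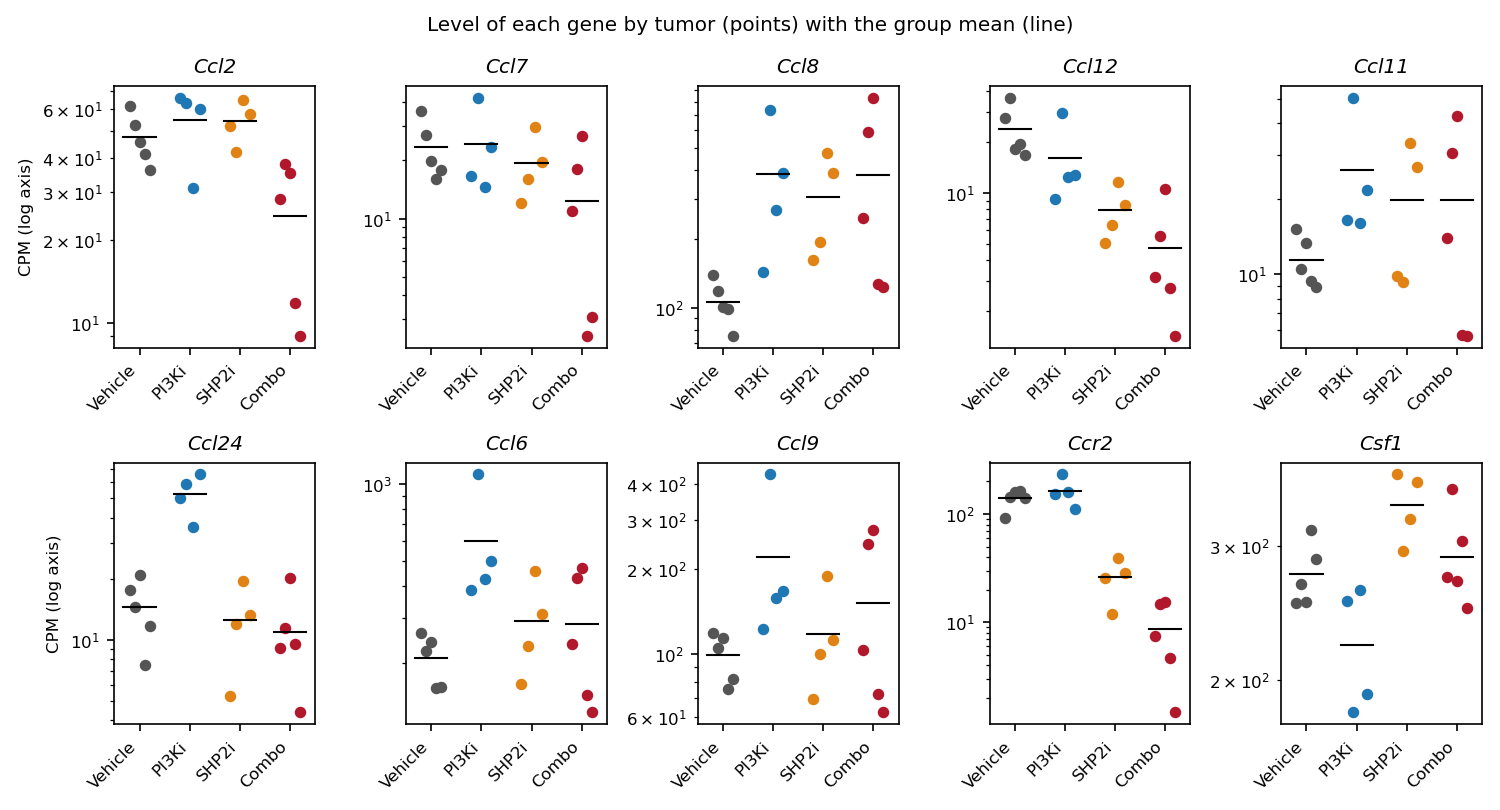
Level of the 10 genes in each tumor, in CPM on a log axis that differs between panels, by treatment group; points are tumors and lines are group means. Ccr2 lay at 11.8 to 39.1 CPM in SHP2i and 1.46 to 15.3 CPM in Combo, below the 91.1 to 163.4 CPM of Vehicle, and Ccl24 lay at 36.2 to 65.5 CPM in PI3Ki, above the 7.55 to 21.0 CPM of Vehicle.

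With PI3Ki, Ccl24 and Ccl6 were higher than in Vehicle and no member was lower. These were 2 of 10 members, beside 5.11% of all genes called and 2.69% called higher. In 5 of 10 members every PI3Ki tumor lay above every Vehicle tumor, and the groups did not overlap for 10.5% of all genes. With SHP2i, Ccr2 and Ccl12 were lower and no member was higher, 2 of 10 beside 11.6% of all genes called and 6.54% called lower, and the groups did not overlap for 3 members (19.1% of all genes). With Combo, Ccl8 was higher and Ccr2, Ccl12 and Ccl2 were lower, 4 of 10 members beside 43.6% of all genes called (23.9% higher and 19.7% lower), a share close to the background. The groups did not overlap for 2 members in Combo (28.9% of all genes). The median log2 fold change of the 10 members was 0.69 in PI3Ki, 0.22 in SHP2i and -0.16 in Combo, against 0.01, 0.02 and 0.02 over all genes tested. The 3 comparisons share the same Vehicle tumors. In bulk tumors, fewer cells of a type and less RNA per cell cannot be told apart, which holds for every difference given here.

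**Figure D2:**
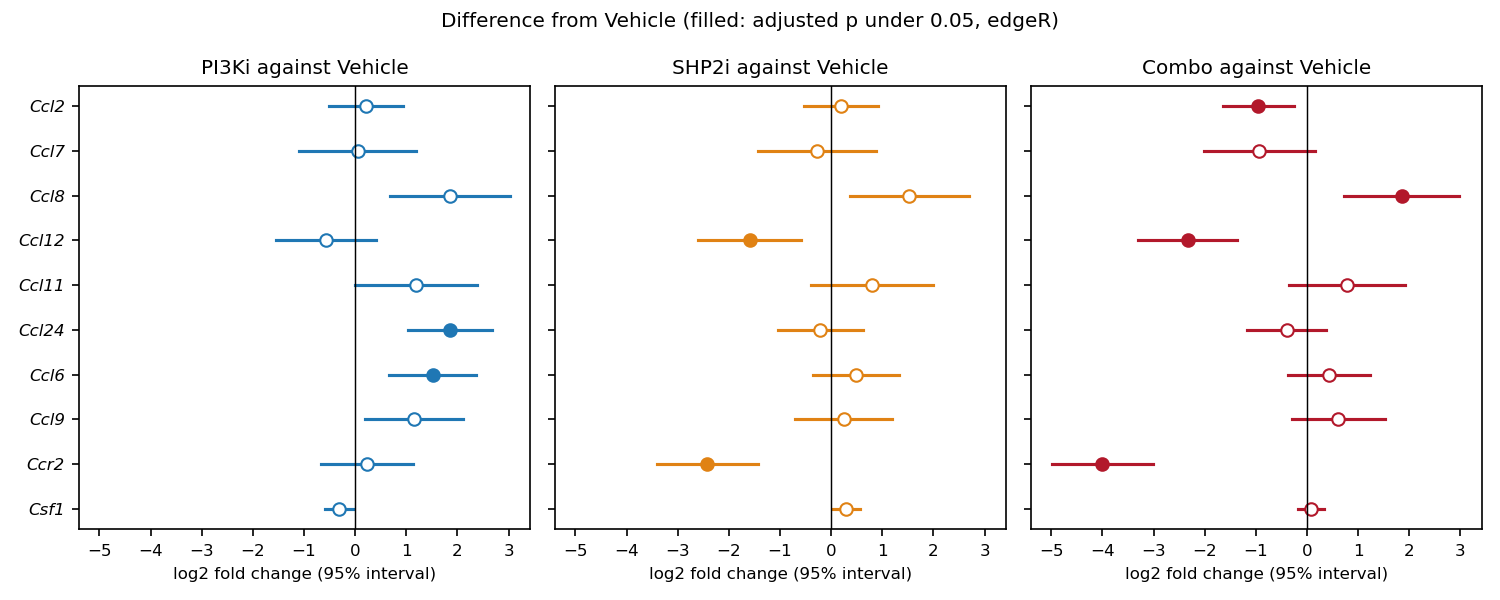
Log2 fold change of the 10 genes against Vehicle in PI3Ki, SHP2i and Combo, with 95% intervals from the quasi-likelihood fit; filled points had an edgeR adjusted p under 0.05. Ccl24 and Ccl6 are filled in PI3Ki, Ccr2 and Ccl12 in SHP2i, and Ccl2, Ccl8, Ccl12 and Ccr2 in Combo, where the value for Ccr2 is -4.0.

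Ccr2, the monocyte receptor gene (Entrez 12772, chromosome 9, 124101918 to 124109140, plus strand, GRCm38.p6), had the largest difference from Vehicle of the 10 members in both SHP2i and Combo. Its level in the 5 Vehicle tumors was 91.1, 144.6, 160.0, 163.4 and 142.0 CPM. The 4 PI3Ki tumors had 154.1, 232.6, 161.1 and 111.1 CPM, which overlapped Vehicle. The 4 SHP2i tumors had 25.5, 11.8, 39.1 and 28.3 CPM, all below the lowest Vehicle tumor. The 5 Combo tumors had 7.40, 14.8, 15.3, 4.62 and 1.46 CPM, and 3 of them lay below every SHP2i tumor. The mean of 140.2 ± 29.0 CPM (SD, n = 5) in Vehicle compares with 26.2 ± 11.3 in SHP2i (n = 4), a log2 fold change of -2.42 (SE 0.462, edgeR adjusted p = 0.00307), and with 8.73 ± 6.18 in Combo (n = 5), a log2 fold change of -4.0 (SE 0.462, edgeR adjusted p = 5.44e-06). The Combo level was 16.0-fold lower than Vehicle. The difference from PI3Ki to Vehicle was 0.23 with a 95% interval of -0.67 to 1.14. Combo was also lower than SHP2i, by -1.58 on the log2 scale (SE 0.451, edgeR adjusted p = 0.0193). That last call was lost without SHP2i replicate 4 (-1.32, adjusted p = 0.0699) and without Combo replicate 4 (-1.41, adjusted p = 0.0527).

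Ccl2 (Entrez 20296, chromosome 11, 82035577 to 82037452, plus strand), whose product is the main ligand of CCR2, had 61.8, 52.7, 45.5, 41.2 and 36.2 CPM in Vehicle. The PI3Ki tumors had 65.9, 62.9, 31.1 and 59.9 CPM, and the SHP2i tumors 52.3, 42.0, 64.9 and 57.4 CPM, and both groups overlapped Vehicle. The Combo tumors had 28.3, 38.0, 35.2, 11.8 and 8.99 CPM, of which 4 lay below every Vehicle tumor. Of the comparisons with Vehicle, Ccl2 was called in Combo, lower by -0.96 on the log2 scale (SE 0.324, edgeR adjusted p = 0.0240), from a mean of 47.5 ± 10.1 to 24.5 ± 13.3 CPM (SD, n = 5 each). The difference was 0.21 in PI3Ki (95% interval -0.51 to 0.93) and 0.19 in SHP2i (-0.53 to 0.91). The Combo call was lost without Vehicle replicate 1 (adjusted p = 0.0587), Vehicle replicate 2 (0.0511) or Combo replicate 4 (0.0589). Ccl2 overlaps Gm17268 on the other strand, which is no row of the tables.

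Ccl7 (Entrez 20306, chromosome 11, 82045712 to 82047525, plus strand), the neighbour of Ccl2 and a further CCR2 ligand, was called in no comparison. Its level was 23.4 ± 8.36 CPM in Vehicle (SD, n = 5), 24.3 ± 12.6 in PI3Ki (n = 4), 19.3 ± 7.55 in SHP2i (n = 4) and 12.3 ± 10.3 in Combo (n = 5). In Combo, 2 tumors, at 2.46 and 3.10 CPM, were far below the other 3, at 11, 18 and 26.7 CPM. The log2 fold change in Combo was -0.93 with a 95% interval of -2.02 to 0.16. It passed the threshold without Combo replicate 3 (-1.44, edgeR adjusted p = 0.0297). In 25 of 26 alternative fits it did not pass (adjusted p up to 0.298). The level of Ccl7 differed from that of Ccl2 by a root mean square of 0.52 over 18 tumors, after each gene was centred on its Vehicle mean in log2 CPM.

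Ccl12 (Entrez 20293, chromosome 11, 82101845 to 82103399, plus strand), a rodent ligand of CCR2, was at 27.7, 36.6, 18.3, 19.5 and 16.8 CPM in Vehicle. The SHP2i tumors had 5.03, 6.48, 11.6 and 8.51 CPM and the Combo tumors 3.19, 5.59, 10.6, 2.72 and 1.42 CPM, all below the lowest Vehicle tumor. The PI3Ki tumors had 9.26, 29.7, 12.4 and 12.7 CPM, so 3 were below Vehicle and replicate 2 was inside its range. Ccl12 fell by 1.59 on the log2 scale in SHP2i (SE 0.472, edgeR adjusted p = 0.0374) and by 2.33 in Combo (SE 0.451, edgeR adjusted p = 0.000585), or 3.01-fold and 5.03-fold. The difference in PI3Ki was -0.57, with a 95% interval of -1.54 to 0.40. The SHP2i call was lost without any of Vehicle replicates 1 to 4 (adjusted p = 0.0665, 0.104, 0.0512 and 0.0502) or SHP2i replicates 2, 3 or 5 (0.10, 0.0870 and 0.0815), and with replicate number as a block (0.0638).

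Ccl8 (Entrez 20307, chromosome 11, 82115185 to 82116799, plus strand), which starts 11.8 kb after the end of Ccl12, had values on the other side of Vehicle. Its level was 138.7, 118.5, 101.3, 98.7 and 75.3 CPM in Vehicle. The PI3Ki tumors had 143.1, 736.2, 268.8 and 389.9 CPM and the SHP2i tumors 161.4, 195.0, 477.7 and 391.7 CPM, all above the highest Vehicle tumor. The Combo tumors had 248.5, 589.5, 831.9, 127.0 and 122.9 CPM, so 3 were above Vehicle and 2 inside its range. Ccl8 was called higher in Combo, with a log2 fold change of 1.85 (SE 0.525, edgeR adjusted p = 0.00905). PI3Ki differed from Vehicle by 1.85 on the log2 scale (SE 0.544, edgeR adjusted p = 0.0584) and SHP2i by 1.52 (SE 0.541, edgeR adjusted p = 0.0753), so neither passed. The PI3Ki value passed without PI3Ki replicate 1 (2.13, adjusted p = 0.0429), without Combo replicate 3, 4 or 5 (adjusted p = 0.0373, 0.0445 and 0.0397), which only add to the estimate of the spread, with PI3Ki and Vehicle fitted alone (0.0206) and in DESeq2 (0.0237). The SHP2i value passed with SHP2i and Vehicle fitted alone (0.00565). Without Combo replicates 3 and 4 together, both passed (0.032 for PI3Ki and 0.0434 for SHP2i). In 19 of 26 alternative fits the PI3Ki value did not pass (log2 fold change down to 1.33, adjusted p up to 0.189). The SHP2i value did not pass in 24 of 26 (down to 1.21, adjusted p up to 0.213). The difference between Combo and PI3Ki had a 95% interval of -1.16 to 1.15, and that between SHP2i and PI3Ki one of -1.55 to 0.89.

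**Figure D3:**
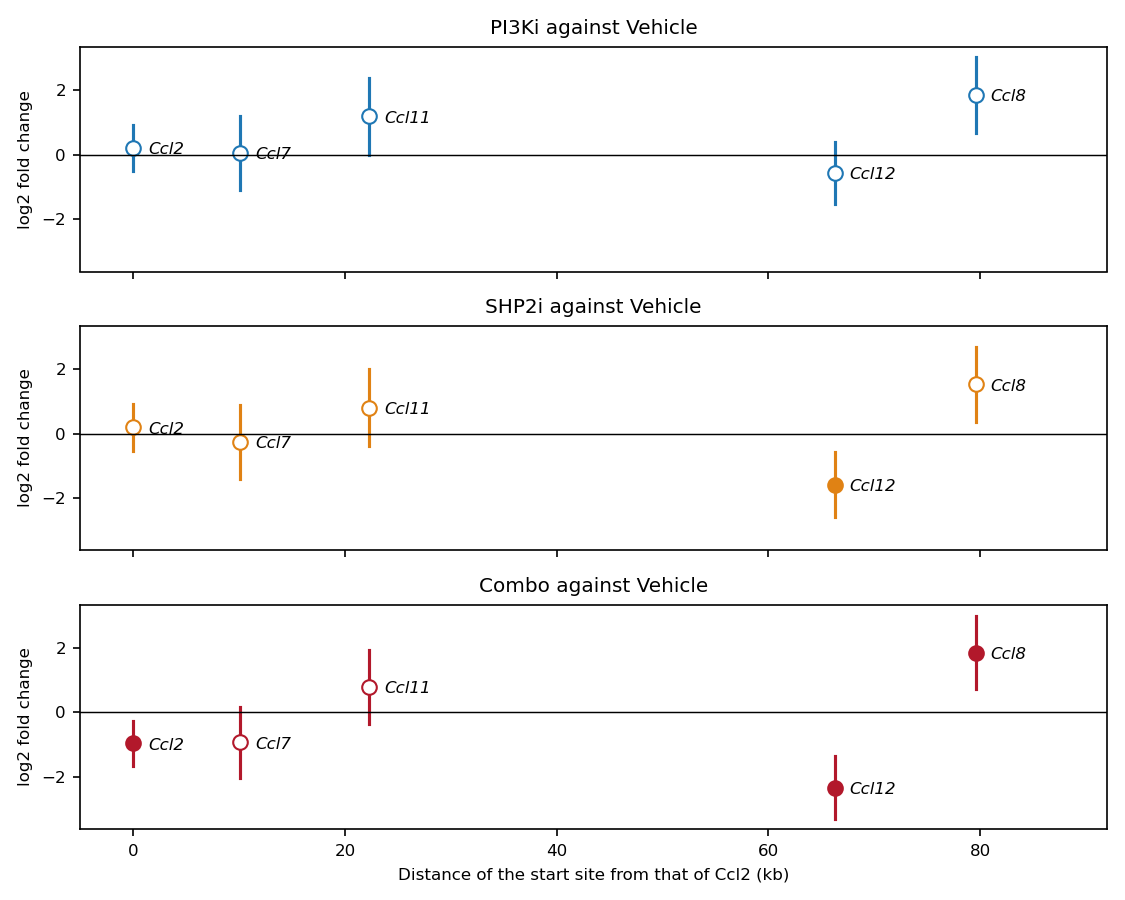
Log2 fold change against Vehicle of the 5 monocyte and eosinophil chemokine genes clustered on chromosome 11, plotted by the distance of each start site from that of Ccl2 in kb, with 95% intervals; filled points had an edgeR adjusted p under 0.05. Ccl12 (66.3 kb) and Ccl8 (79.6 kb) lie next to each other, with log2 fold changes of -2.33 and 1.85 in Combo.

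The ratio of Ccl8 to Ccl12 counts within a tumor does not depend on the scaling of the libraries. It was chosen after the values were seen and is given as a description. In Vehicle there were 3.24 to 5.54 Ccl8 counts per Ccl12 count (median 5.00). The ratio was 15.5 to 30.8 in PI3Ki (median 23.3), 30.1 to 46.1 in SHP2i (median 36.6) and 46.7 to 105.5 in Combo (median 78.1). No Vehicle tumor reached the ratio of any treated tumor, and SHP2i and Combo did not overlap each other, while PI3Ki and SHP2i overlapped by the values 30.1 and 30.8. The ratio of Ccl8 to Ccl2 counts was 2.08 to 2.39 in Vehicle, 2.17 to 11.7 in PI3Ki, 3.09 to 7.37 in SHP2i and 8.77 to 23.6 in Combo.

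**Figure D4:**
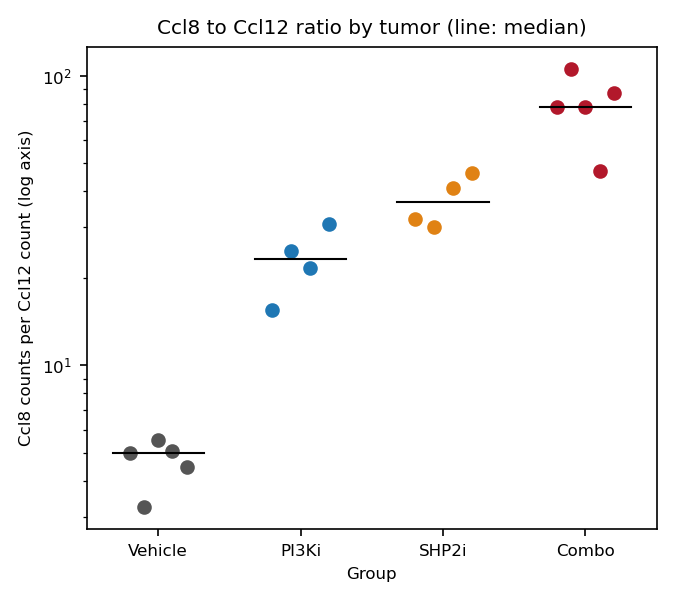
Ccl8 counts per Ccl12 count in each tumor, on a log axis, by treatment group; points are tumors and lines are medians. The Vehicle tumors lie at 3.24 to 5.54 and the Combo tumors at 46.7 to 105.5, with the single inhibitors between them.

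The 250 bases before the start site are shown for the neighbours Ccl12 and Ccl8, whose Combo differences from Vehicle had opposite signs, and for the neighbours Ccl9 and Ccl6, whose PI3Ki levels both lay above Vehicle. They are RefSeq sequences of GRCm38.p6, written 5′ to 3′ along the gene, and the mice were of the Balb/c strain rather than that of the reference. Capitals mark matches, on either strand, to NF-kB (3 G, any 2 bases, 3 T and 2 C), AP-1 (TGANTCA), STAT (TTCNNNGAA), the interferon response element (GAAA 2 times with any 2 bases between), FOXO (TGTTTAC) or ETS (GGAAGT) motifs.
Ccl12 (chr11:82101595-82101844, plus strand): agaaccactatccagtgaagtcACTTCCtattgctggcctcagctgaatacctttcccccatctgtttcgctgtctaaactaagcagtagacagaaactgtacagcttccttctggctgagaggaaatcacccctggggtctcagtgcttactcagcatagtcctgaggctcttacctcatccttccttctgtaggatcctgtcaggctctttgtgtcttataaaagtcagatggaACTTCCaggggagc
Ccl8 (chr11:82114935-82115184, plus strand): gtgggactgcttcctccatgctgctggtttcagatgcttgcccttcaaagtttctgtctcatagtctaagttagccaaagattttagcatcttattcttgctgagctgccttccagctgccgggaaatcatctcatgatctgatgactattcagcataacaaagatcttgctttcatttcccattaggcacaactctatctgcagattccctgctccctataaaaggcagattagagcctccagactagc
Ccl9 (chr11:83578637-83578886, minus strand): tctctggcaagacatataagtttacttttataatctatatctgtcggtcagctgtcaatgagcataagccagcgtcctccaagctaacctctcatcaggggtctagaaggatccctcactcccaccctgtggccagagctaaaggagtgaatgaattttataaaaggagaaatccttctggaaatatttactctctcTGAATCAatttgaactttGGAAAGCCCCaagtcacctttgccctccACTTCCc
Ccl6 (chr11:83593088-83593337, minus strand): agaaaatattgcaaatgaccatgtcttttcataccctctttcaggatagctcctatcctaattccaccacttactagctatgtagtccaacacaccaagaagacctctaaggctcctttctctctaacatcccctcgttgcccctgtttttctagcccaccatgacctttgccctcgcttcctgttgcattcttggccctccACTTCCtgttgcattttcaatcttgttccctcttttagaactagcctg
Ccl8 held none of these letters in this window. Ccl12 held the ETS motif at -228 and -14 relative to the start site and Ccl6 at -48. Ccl9 held the NF-kB motif at -35, the AP-1 motif at -53 and the ETS motif at -7. Of the members whose windows were searched but are not printed, Csf1 held the NF-kB motif at -154 and Ccr2 held none. Ccl2, Ccl7, Ccl11 and Ccl24 had no entry in the promoter set and were not searched. No match overlapped another. Of 32851 mouse promoter windows of this length, 1.41% held the NF-kB motif, 6.75% the AP-1 motif, 7.02% the STAT motif, 2.98% the interferon response element, 3.17% the FOXO motif and 19.7% the ETS motif. These matches are descriptions of the sequence and no binding was measured.

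Of the eotaxins, Ccl24 (Entrez 56221, chromosome 5, 135569935 to 135573123, minus strand) was the 1 called, higher in PI3Ki. Its level was 17.7, 14.5, 21.0, 7.55 and 11.7 CPM in Vehicle and 50.1, 58.8, 36.2 and 65.5 CPM in PI3Ki. The SHP2i tumors had 5.31, 12, 19.6 and 13.2 CPM and the Combo tumors 9.15, 11.4, 20.3, 9.54 and 4.38 CPM. Every PI3Ki tumor was above every tumor of the other 3 groups, whose ranges overlapped. The mean went from 14.5 ± 5.20 CPM (SD, n = 5) in Vehicle to 52.7 ± 12.6 with PI3Ki (n = 4), 1.86 higher on the log2 scale (SE 0.381, edgeR adjusted p = 0.00796). Over all alternatives, each tumor left out in turn among them, the adjusted p was at most 0.0300. Combo was 4.80-fold lower than PI3Ki (log2 fold change -2.26, SE 0.386, edgeR adjusted p = 0.000285) and SHP2i 4.20-fold lower (-2.07, SE 0.414, edgeR adjusted p = 0.00199). The difference of Combo from Vehicle was -0.40, with a 95% interval of -1.18 to 0.38.

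Ccl11 (Entrez 20292, chromosome 11, 82057832 to 82062955, plus strand), the other eotaxin gene, was called in no comparison. Its level was 15.1, 10.5, 13.3, 9.44 and 8.90 CPM in Vehicle and 16.5, 50.6, 16.0 and 21.6 CPM in PI3Ki, so the PI3Ki tumors were all above Vehicle, 1 of them by far. The SHP2i tumors had 9.86, 9.35, 33.4 and 26.9 CPM and the Combo tumors 14, 30.5, 42.8, 5.74 and 5.67 CPM, which spread to both sides of the Vehicle range in Combo. The log2 fold change in PI3Ki was 1.19 (SE 0.555, edgeR adjusted p = 0.246), and 0.66 without PI3Ki replicate 2. The ratio of Ccl11 to Ccl24 counts was 0.636 to 1.25 in Vehicle, 0.328 to 0.860 in PI3Ki, 0.779 to 2.03 in SHP2i and 0.602 to 2.68 in Combo.

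Ccl6 (Entrez 20305, chromosome 11, 83587886 to 83593087, minus strand), a CCR1 ligand of myeloid cells, came after Ccl8 in level per kb in Vehicle and was at 262.1, 223.3, 242.0, 160.3 and 162.4 CPM. The PI3Ki tumors had 385.1, 1092.2, 425.3 and 502.5 CPM, all above Vehicle. The SHP2i tumors had 166.6, 234.6, 460.3 and 312.9 CPM and the Combo tumors 238.9, 431.9, 470.2, 149.8 and 128.6 CPM, and both groups overlapped Vehicle. Ccl6 was called higher in PI3Ki, with a log2 fold change of 1.52 (SE 0.397, edgeR adjusted p = 0.0339). Without PI3Ki replicate 2, which had the highest level, the log2 fold change was 1.06 and the adjusted p 0.129. The call was also lost without any 1 Vehicle tumor (adjusted p = 0.0508, 0.0734, 0.0578, 0.0902 and 0.0741 for replicates 1 to 5), without PI3Ki replicate 5 (0.0568) and with replicate number as a block (0.0809). The difference was 0.48 in SHP2i (95% interval -0.36 to 1.33) and 0.43 in Combo (-0.37 to 1.24). Ccl6 lies inside the long noncoding gene E230016K23Rik (chromosome 11, 83582061 to 83623693, plus strand), whose counts were 101.6% to 102.8% of those of Ccl6 in every tumor, so the counting did not separate these genes.

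Ccl9 (Entrez 20308, chromosome 11, 83572917 to 83578636, minus strand), lies 9.2 kb from Ccl6 on the same strand. Its level was 119.4, 105.3, 114.2, 75.4 and 81.7 CPM in Vehicle and 122.5, 433.8, 158.1 and 167.3 CPM in PI3Ki. It was 69.2 to 189.3 CPM in SHP2i and 62.2 to 275.4 CPM in Combo. All PI3Ki tumors lay above Vehicle, and the log2 fold change of 1.15 did not pass (SE 0.443, edgeR adjusted p = 0.154). The levels of Ccl6 and Ccl9 differed by a root mean square of 0.26 on the log2 scale over 18 tumors, the smallest value of any pair of members. The ratio of Ccl6 to Ccl9 counts was 1.99 to 2.20 in Vehicle, 2.52 to 3.14 in PI3Ki, 2.34 to 2.77 in SHP2i and 1.71 to 2.31 in Combo.

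Csf1, the macrophage growth factor gene (Entrez 12977, chromosome 3, 107741048 to 107760469, minus strand), varied least, by 9.55% to 18.8% (SD over mean) within a group. Its level was 275.0 ± 26.3 CPM in Vehicle (SD, n = 5), 222.2 ± 41.8 in PI3Ki (n = 4), 338.9 ± 35.7 in SHP2i (n = 4) and 290.3 ± 41.5 in Combo (n = 5). It was called in no comparison with Vehicle, with log2 fold changes of -0.31 in PI3Ki (edgeR adjusted p = 0.184), 0.30 in SHP2i (0.122) and 0.08 in Combo (0.625). SHP2i tumors, at 372.0, 294.9, 325.2 and 363.5 CPM, were all above PI3Ki tumors, at 253.6, 181.3, 262.6 and 191.5 CPM. That difference was 0.61 on the log2 scale (SE 0.133, edgeR adjusted p = 0.00365). Combo was higher than PI3Ki by 0.39 (SE 0.127, edgeR adjusted p = 0.0237), a call lost without PI3Ki replicate 2 (adjusted p = 0.134), PI3Ki replicate 5 (0.0956), Combo replicate 2 (0.0668) or Combo replicate 4 (0.0539). It was also lost without Combo replicates 3 and 4 together (0.0603), with replicate number as a block (0.0658) and with Combo and PI3Ki fitted alone (0.0851).

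Between the treated groups, 6 of 10 members differed between Combo and PI3Ki, beside 37.7% of all genes (17.8% lower in Combo, as 5 of the members were). Ccr2 was lower in Combo by -4.23 on the log2 scale, Ccl24 by -2.26, Ccl12 by -1.76, Ccl2 by -1.17 and Ccl6 by -1.08, and Csf1 was higher (edgeR adjusted p = 6.69e-06, 0.000285, 0.00679, 0.0123, 0.0391 and 0.0237). The Ccl6 call was lost without PI3Ki replicate 2 (-0.65, adjusted p = 0.220) or Combo replicate 1, 4 or 5 (0.0722, 0.0875 and 0.0890), with replicate number as a block (0.0588) and with Combo and PI3Ki fitted alone (0.101). Between Combo and SHP2i, 2 of 10 members differed, beside 22.1% of all genes (10.3% lower), namely Ccl2 (-1.15, edgeR adjusted p = 0.0233) and Ccr2. The Ccl2 call was lost without SHP2i replicate 4 (0.0652), SHP2i replicate 5 (0.0511) or Combo replicate 4 (0.0547). Between SHP2i and PI3Ki, 3 of 10 members differed, beside 24.5% of all genes (12.8% lower in SHP2i), Ccr2 and Ccl24 lower and Csf1 higher in SHP2i, with a log2 fold change of -2.65 for Ccr2 (edgeR adjusted p = 0.000963). The interaction, the difference of Combo from the sum of the single effects on the log2 scale, was called for 0 of 10 members in edgeR, beside 2.47% of all genes. An unadjusted p under 0.05 was found for 4 members, and DESeq2 called 1, Ccl24. The interaction of Ccl24 was -2.05 (SE 0.539, edgeR adjusted p = 0.0530). It passed without PI3Ki replicate 3 (adjusted p = 0.0468), SHP2i replicate 2 (0.0340) or Combo replicate 3 (0.0179). In 20 of 25 alternative fits it did not pass, with adjusted p up to 0.145.

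The same few tumors were high or low in most of the 8 chemokines. Their summed level was 410.8 to 678.8 CPM in Vehicle, 809.2 to 2506.4 in PI3Ki, 481.7 to 1286.4 in SHP2i and 337.3 to 1713.1 in Combo. SHP2i replicate 4 had the highest level of its group for 8 of 8 chemokines, Combo replicate 3 for 7, and PI3Ki replicate 2 and Vehicle replicate 1 for 6 each. Combo replicate 5 had the lowest level of its group for 7 of 8. Ccl8 made up 17.6% to 23.1% of the summed chemokine CPM in Vehicle, 17.7% to 31.4% in PI3Ki, 31.7% to 41.5% in SHP2i and 33.3% to 48.6% in Combo. Ccl12 made up 3.18% to 6.21% in Vehicle and 0.408% to 0.713% in Combo.

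**Figure D5:**
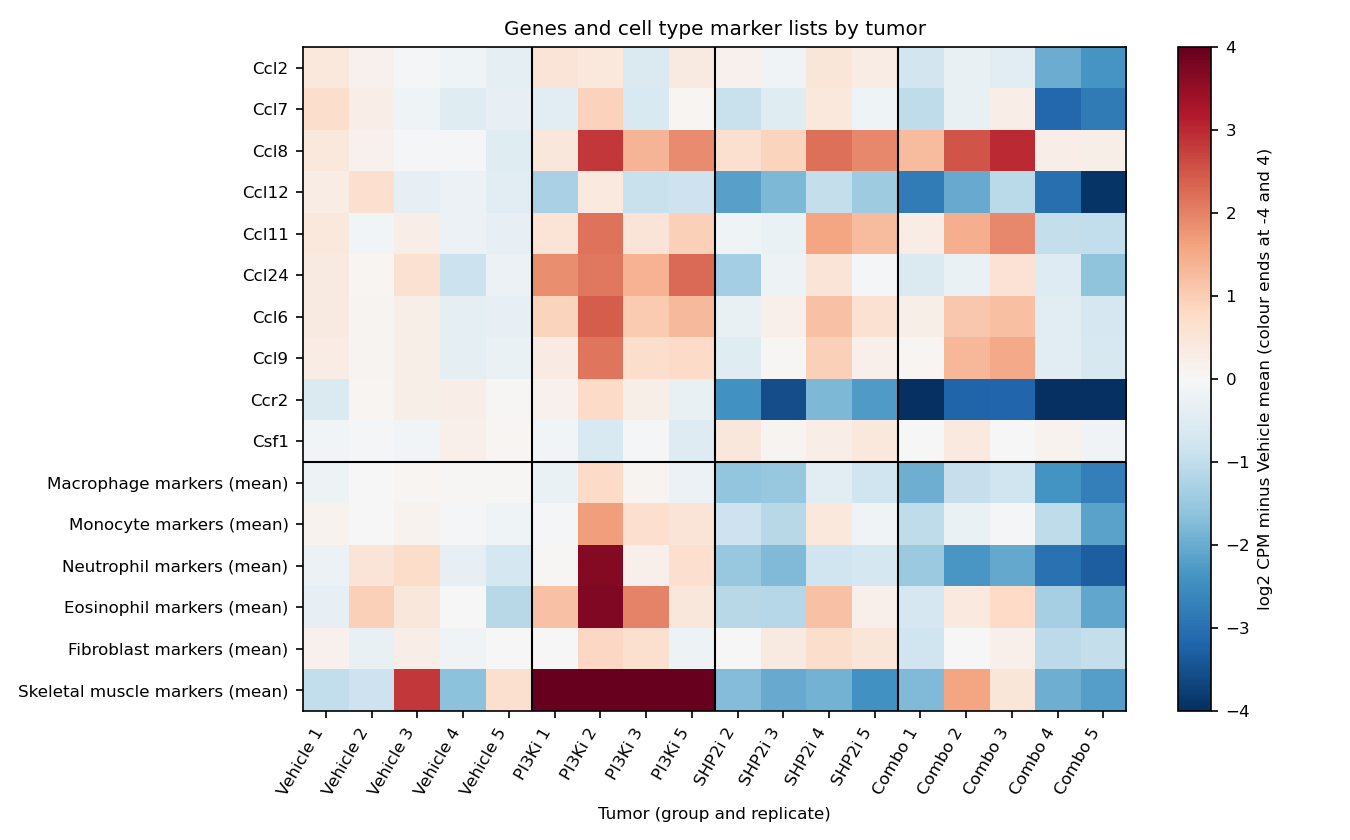
Log2 CPM of the 10 genes (rows above the line) and the mean over marker lists of 6 cell types (rows below the line) in each tumor, minus the Vehicle mean; red is higher and blue is lower, and colours end at -4 and 4. Combo replicates 2 and 3 carry the highest Ccl8, Ccl11, Ccl6 and Ccl9 of their group, and the macrophage rows are blue in every SHP2i and Combo tumor.

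The markers of the cells that respond to these chemokines differed between the groups, and their part in the differences above was not tested. Of 12 macrophage markers, 7 were called lower in SHP2i and 9 in Combo, where Cd163, a scavenger receptor for haptoglobin-bound hemoglobin, was the 1 called higher (log2 fold change 2.72, edgeR adjusted p = 0.000617). In PI3Ki none was called. The shares of all genes called lower were 6.54% in SHP2i and 19.7% in Combo. With 1 tumor left out in turn, the SHP2i calls of Adgre1, Siglec1 and Csf1r were lost in 7, 7 and 5 of 18 fits (adjusted p up to 0.0852, 0.0947 and 0.0811). The summed level of this list was 1967.3 to 2504.0 CPM in Vehicle, 1881.5 to 3673.3 in PI3Ki, 721.2 to 1737.4 in SHP2i and 486.8 to 2033.7 in Combo. In Combo the sum included Cd163 at up to 748.2 CPM and Mrc1 at up to 585.5 CPM. With each gene at the same weight, the mean log2 CPM minus the Vehicle mean was -2.73 to -0.81 in Combo and -0.21 to 0.09 in Vehicle. Fcgr1, a receptor for antibodies, was among the markers with the smallest p in Combo (log2 fold change -4.64, edgeR adjusted p = 1.70e-07). Of 8 monocyte markers, which include the member Ccr2, 2 were lower and 1 higher in SHP2i and 3 lower and 1 higher in Combo, and 1 was higher in PI3Ki. The 1 higher was in each case Chil3, a chitinase-like protein of myeloid cells, whose call was lost in PI3Ki and in SHP2i in 6 of 18 fits with 1 tumor left out (adjusted p up to 0.0710 and 0.190) and in Combo in 0. The lower call of the monocyte marker Ly6c2 in Combo was lost in 8 of 18 such fits (adjusted p up to 0.1). The summed monocyte list was 2307.6 to 4876.5 CPM in Vehicle and 1982.2 to 3751.5 in Combo. Most of this sum was Fn1, which other cells also make, at 2758.9 ± 1015.8 CPM in Vehicle and 2936.9 ± 673.8 in Combo (SD, n = 5 each). The mean of the list in log2 CPM minus the Vehicle mean, where each gene has the same weight, was -0.17 to 0.14 in Vehicle and -2.15 to -0.04 in Combo.

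Eosinophil markers were low throughout. Of 10 listed, 8 were rows of the tables and 4 were high enough to test, while Epx, Prg3, Ear1 and Il5ra were not. Prg2, the major basic protein of eosinophil granules, was at 31.0 CPM in PI3Ki replicate 2, at 0.279, 0.719 and 0.408 CPM in the other 3 PI3Ki tumors and at 0.0436 to 0.626 CPM in Vehicle. It was the 1 called in PI3Ki (log2 fold change 4.64, edgeR adjusted p = 0.0306), and without PI3Ki replicate 2 its log2 fold change was 0.55 and the adjusted p 0.758. The summed list was 2.14 to 10.2 CPM in Vehicle, 10.7 to 77.6 in PI3Ki, 2.05 to 13.8 in SHP2i and 0.930 to 28.1 in Combo. Alox15, a gene of this list, was at 1.05 to 5.71 CPM in Vehicle, 7.23 to 17.0 in PI3Ki, 1.19 to 7.83 in SHP2i and 0.664 to 27.7 in Combo. It thus made up nearly all of the highest Combo sum. Ccr3, the eotaxin receptor gene, was at 1.47 ± 0.691 CPM in Vehicle (SD, n = 5) and 5.14 ± 3.23 in PI3Ki (n = 4), and was not called (log2 fold change 1.80, edgeR adjusted p = 0.192). Epx, the eosinophil peroxidase gene, was at 0 to 0.117 CPM in Vehicle, 0 to 6.17 in PI3Ki, 0 to 0.0448 in SHP2i and 0 in every Combo tumor. It was too low in Vehicle for the value in Combo to show a difference.

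PI3Ki tumors also carried markers of skeletal muscle, of which 7 of 7 were called higher, beside 2.69% of all genes. Their summed level was 770.4 to 1833.0 CPM in PI3Ki, against 3.94 to 94.7 in Vehicle, 2.06 to 3.98 in SHP2i and 3.14 to 37.8 in Combo. PI3Ki replicate 2, which had the highest Ccl8, Ccl12, Ccl11, Ccl6, Ccl9 and Ccl7 of its group, also had the highest summed neutrophil markers, at 2075.2 CPM against 162.6 to 271.5 in the other 3 PI3Ki tumors. The 4 PI3Ki tumors had all muscle markers above Vehicle, and their part in the higher Ccl24 and Ccl6 was not tested. Of 10 neutrophil markers tested, 7 were lower in Combo, 0 in SHP2i and 0 in PI3Ki, where 1, Retnlg, was higher (log2 fold change 2.28, edgeR adjusted p = 0.0439), a call lost without PI3Ki replicate 2 (0.88, adjusted p = 0.356). Of 8 fibroblast markers, 3 were lower and 2 higher in Combo, and 5 of 6 endothelial markers were lower in Combo. These counts stand beside 19.7% of all genes called lower and 23.9% called higher in Combo. With 1 tumor left out in turn, the Combo calls of the neutrophil markers Ngp and Csf3r were lost in 8 of 18 fits each. Those of the fibroblast markers Col1a1 and Col1a2 were lost in 2 and 5 (adjusted p up to 0.0533 and 0.0768). None of the fibroblast or endothelial markers was called in PI3Ki or SHP2i. B cell markers were at 55.4 and 152.0 CPM in Combo replicates 3 and 4 and at 0.438 to 1.30 CPM in the other 3 Combo tumors. Without those 2 tumors Ccl8 was also called in Combo (log2 fold change 1.57, edgeR adjusted p = 0.0208).

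Of the other receptors for these ligands, Ccr1 and Csf1r were lower in SHP2i and in Combo, and neither was called in PI3Ki. Ccr1, the receptor for CCL6 and CCL9, was at 88.3 ± 9.08 CPM in Vehicle (SD, n = 5), 29.0 ± 11.3 in SHP2i (n = 4) and 17.8 ± 9.90 in Combo (n = 5), with log2 fold changes of -1.61 and -2.31 (edgeR adjusted p = 0.00768 and 5.12e-05). Csf1r, the receptor for CSF1 and a marker of macrophages, fell by 1.34 in SHP2i and by 1.61 in Combo on the log2 scale (edgeR adjusted p = 0.0267 and 0.00140), and its SHP2i call was lost in 5 of 18 fits with 1 tumor left out (adjusted p up to 0.0811). The decoy receptor genes Ackr1 and Ackr2 and the eotaxin receptor gene Ccr3 were called in no comparison with Vehicle.

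Among 12 other CC chemokine genes, 10 were in the tables and 7 could be tested. Their counts stand beside 19.7% of all genes called lower in Combo and 2.69% called higher in PI3Ki. In Combo, 3 were lower, namely Ccl3 (log2 fold change -1.59, edgeR adjusted p = 0.00455), Ccl4 (-2.40, edgeR adjusted p = 0.000584) and Ccl5 (-0.96, edgeR adjusted p = 0.0225), which encode inflammatory chemokines of T cells and myeloid cells. In PI3Ki, 1 was higher, Ccl17, a ligand of CCR4 on T cells (1.97, edgeR adjusted p = 0.0248), from 0.667 ± 0.251 CPM (SD, n = 5) to 2.64 ± 1.79 (n = 4). The Ccl17 call was lost in 4 of 18 fits with 1 tumor left out, with the highest adjusted p without PI3Ki replicate 2 (1.39, adjusted p = 0.101), and the Ccl5 call in 4 (up to 0.0584). In SHP2i none of the 7 was called. Of 7 tested growth factor and receptor genes of myeloid cells, Il34, which encodes the other ligand of CSF1R, was higher in Combo (0.78, edgeR adjusted p = 0.000792), and Csf3, the granulocyte growth factor gene, was lower (-2.30, edgeR adjusted p = 8.16e-05), as were Csf2ra, Csf3r and Kit. Csf2ra was the 1 called in SHP2i, lower by -1.23 (edgeR adjusted p = 0.0497), a call lost in 13 of 18 fits with 1 tumor left out (up to 0.123), and the Csf3r call in Combo was lost in 8 (up to 0.0966).

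By the root mean square difference of log2 CPM over 18 tumors, each gene centred on its Vehicle mean, the genes nearest to Ccl8 were Ms4a8a (0.33), Il13ra2 (0.38), a decoy receptor for interleukin 13, and Pgap6 (0.40). Those nearest to Ccl12 were Spi1 (0.38), which encodes the myeloid transcription factor PU.1, Ccr1 (0.40) and Ms4a6c (0.41). Ccr2 was nearest to Msr1 (0.43), a macrophage scavenger receptor gene, Clec5a (0.47) and Pld4 (0.52). Ccl24 was nearest to Tarm1 (0.53), Arg1 (0.55), which encodes arginase, and Mmp9 (0.58), and Ccl2 to Tfpi2 (0.34), Arhgef39 (0.35) and Thy1 (0.37). Ccl6 was nearest to E230016K23Rik (0.01), with which it shares its counts, and then, outside the members, to Arg1 and Tfec (0.31 each). The member Ccl9 was nearer to Ccl6 than Arg1 and Tfec were, at 0.26.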

How the data were processed

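RNA-seq of 18 4T1 tumors was analysed, 1 library per tumor, grouped by the treatment in the sample labels. The authors isolated total RNA from frozen tissue and enriched it for poly(A) transcripts, and strand-specific libraries were sequenced as read pairs. After adapter removal by cutadapt, they mapped reads to GRCm38 in a two-pass STAR run, and QuasR's qCount tallied them. The authors deposited raw counts by Entrez gene, without scaling. Versions, the gene annotation and the strand setting are not given in the sources used here, so overlapping genes may share counts. The submitters' processing notes also name hg19, although all identifiers used are of mouse genes. Symbols were matched for 22760 of 22792 identifiers (GRCm38.p6), and the 32 without a match held 0.0193% of the counts. No pair of tumors of a group agreed within sampling noise.

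Counts were filtered with filterByExpr (minimum count 10, minimum total 15), scaled by TMM and fitted with edgeR 4.0.16 in R 4.3.3 (glmQLFit, 1 mean per group, 14 residual degrees of freedom, two-sided quasi-likelihood F test). P-values were adjusted by Benjamini-Hochberg over 15282 genes. SE is the log2 fold change over the square root of F, and 95% intervals use the t distribution. Log2 CPM had a prior count of 2. Totals were 21.16 to 26.62 M counts per tumor, and p-values measure the spread between tumors. DESeq2 1.42.0, other scalings and filters, groups alone, a replicate block, a fold limit and single tumors left out were the alternatives. The fits were tested on simulated data. Sequences and transcripts were read with Python 3.11.15 and Biopython 1.88. All 10 members were named, lists are described by counts, and other genes were named if called, abundant or of small p. The 3 nearest genes that are no member (mean log2 CPM over 1) were taken by root mean square difference. A gene of the receptor list is not reported here. Cd163, Mrc1, Adgre1, Siglec1, Ly6c2, Ngp, Col1a1, Col1a2, Cpa3, Lep, Cd8a, Ccr3, Epx, Ackr1 and Ackr2 were named after their values were seen. The members and lists were chosen with earlier results of these data known. Replicate numbers were not treated as pairs. The median correlation of deviations was 0.018 over 24 same-number pairs and -0.006 over 97 pairs of other numbers. It was over 0.1 in 8 of the 24 same-number pairs.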

Additional observations from a re-analysis of the deposited data

Results flagged for a closer look

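Among 40 checks of the highest and lowest tumor of a group, made on CPM without logs, 4 stood far from the others by Dixon's ratio. All 4 were PI3Ki replicate 2. Chance gives about 1 in 20 for normally distributed values, which CPM need not be. High values stand out less on the log2 scale, where the check was not made. This tumor had 29.7 CPM of Ccl12, against 9.26 to 12.7 CPM in the other 3 PI3Ki tumors. It had 50.6 CPM of Ccl11, against 16.0 to 21.6 CPM, 1092.2 CPM of Ccl6, against 385.1 to 502.5 CPM, and 433.8 CPM of Ccl9, against 122.5 to 167.3 CPM. The 4 checks are not independent, since they concern the same tumor. It also had the highest summed macrophage (3673.3 CPM), neutrophil (2075.2 CPM) and eosinophil (77.6 CPM) markers of its group, and their part in these values was not tested. Without it, the log2 fold change against Vehicle was 1.06 for Ccl6 (edgeR adjusted p = 0.129). None of the 10 interactions between the inhibitors was called.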

How the results depend on the processing

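Of 19 calls of a member in a comparison, 11 held in every alternative fit, and of 51 values not called, 44 were called in none. These counts leave out the fold limit (absolute log2 fold change over 1), which is not a fit. Of those 11 calls, the fold limit removed that of Csf1 in SHP2i against PI3Ki (log2 fold change 0.61). No called value changed sign, while 17 uncalled ones did, the largest at 0.54 on the log2 scale. No scaling moved the median of all genes by over 0.1. With the replicate block, 1 member was called in PI3Ki against Vehicle and 1 in SHP2i against Vehicle, in place of 2 each, and 4 between Combo and PI3Ki in place of 6, with Ccl6 and Csf1 lost. Tumors that share a number did not deviate together (r from -0.42 to 0.326 over 24 pairs), and 4 of 18 tumors were closest to one of their own number. With only the compared groups in the fit, 0 members were called between Combo and SHP2i (2 in the fit to all tumors) and 3 between Combo and PI3Ki (6). The interaction had 1 call without Combo replicates 3 and 4 together and 1 in DESeq2 (0 in the fit to all tumors), each time Ccl24. With 1 tumor left out, the calls ranged from 1 to 3 in PI3Ki, 1 to 2 in SHP2i and 3 to 5 in Combo against Vehicle, from 0 to 3 between Combo and SHP2i, 4 to 7 between Combo and PI3Ki and 3 to 4 between SHP2i and PI3Ki, and from 0 to 1 for the interaction. For these shifts the cause was not tested. The fits to the compared groups only and those with tumors left out also hold fewer tumors. Counts limit the lowest values, such as Ccr2 and Ccl12 in Combo and the eosinophil markers.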

Other observations

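Genes of the type 2 response, to which the eotaxins belong by their induction through interleukins 4 and 13, were measured beside the chemokines. Of 12 listed, 3 were higher in PI3Ki, namely Arg1, the arginase gene (log2 fold change 1.84, edgeR adjusted p = 0.0233), Mgl2, a lectin gene of myeloid cells (2.05, edgeR adjusted p = 0.0208), and Chil3 (4.23, edgeR adjusted p = 0.0243). In SHP2i 2 were higher, Il13 and Chil3 (2.86 and 3.60, edgeR adjusted p = 0.0480 and 0.0319). In Combo 6 were higher and 1 lower, beside 23.9% and 19.7% of all genes. Il33, an alarmin gene of stromal and epithelial cells, went from 63.0 ± 7.26 to 112.5 ± 19.8 CPM (SD, n = 5 each, log2 fold change 0.84, edgeR adjusted p = 0.00101), and Il13, at 0.112 ± 0.101 CPM in Vehicle, was at 1.87 ± 2.08 CPM in Combo (4.02, edgeR adjusted p = 0.00115). Il4, Il5, Il13ra1 and Chil3 were the others that were higher. With 1 tumor left out in turn, the PI3Ki calls of Arg1, Mgl2 and Chil3 were lost in 6, 5 and 6 of 18 fits (adjusted p up to 0.0772, 0.0644 and 0.0710), the SHP2i calls of Il13 and Chil3 in 12 and 6 (up to 0.197 and 0.190), and the Combo calls of Il5 and Il13ra1 in 6 and 14 (up to 0.178 and 0.170). Mgl2 was lower in Combo (-1.60, edgeR adjusted p = 0.0137), so it differed from Vehicle in opposite directions in PI3Ki and Combo.

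Of 11 NF-kB response genes, 10 were not called in PI3Ki, 8 in SHP2i and 6 in Combo. The median log2 fold change of the list was 0.17, 0.07 and -0.09. In Combo 4 were lower and 1 higher, beside 19.7% and 23.9% of all genes. Tnf was lower in all 3 treated groups, by -1.65 in PI3Ki, -2.02 in SHP2i and -3.66 in Combo on the log2 scale (edgeR adjusted p = 0.0179, 0.00364 and 4.31e-06). Il1b was lower in SHP2i (-1.21, edgeR adjusted p = 0.0251) and Combo (-3.58, edgeR adjusted p = 9.00e-07). The Tnf call in PI3Ki was lost in 2 of 18 fits with 1 tumor left out and the Il1b call in SHP2i in 4 (adjusted p up to 0.0639 and 0.0741). Icam1 and Vcam1 were lower in Combo, by -0.59 each, and Tnfaip3, an inhibitor of this pathway, was higher in SHP2i and Combo (0.84 and 0.58, edgeR adjusted p = 0.00118 and 0.00235). Of the remaining lists, 3 of 5 mast cell markers, 1 of 5 T cell markers and 1 of 6 carcinoma markers were lower in Combo. Of 4 adipocyte markers, 2 were higher in Combo. With 1 tumor left out in turn, the Combo calls of Cpa3 (mast cell), Lep (adipocyte) and Cd8a (T cell) were lost in 7, 6 and 5 of 18 fits. Their adjusted p rose to 0.0997, 0.0993 and 0.0719. None of 5 B cell markers was called in any comparison with Vehicle by edgeR. In SHP2i all 5 B cell markers lay below Vehicle in every tumor, at a summed 1.79 to 3.30 CPM against 17.8 to 71.8 CPM in Vehicle (median over the 5 of -4.17 on the log2 scale).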
